A study of Xenopus tropicalis with 2 samples.

Results

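The genes pdgfa and pdgfra encode a ligand and a receptor of platelet-derived growth factor (PDGF) signalling. They were taken by gene name from the 21821 genes of a single-nucleus RNA-seq matrix of wild-type Xenopus tropicalis embryos and are 2 genes of that number. In the annotation of the genome assembly UCB_Xtro_10.0, pdgfa (XBXT10g018030) spans 41032 bp of chromosome 9, from 27858237 to 27899268. The receptor gene pdgfra (XBXT10g008337) spans 28554 bp of chromosome 1, from 39990267 to 40018820.

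Whole embryos with no genetic or drug treatment were collected at Nieuwkoop-Faber stage 10.5, the early gastrula, and pooled before nuclei were isolated, so no value belongs to 1 embryo. RNA of single nuclei was barcoded with the Parse split-pool method, in which nuclei are labelled in successive rounds of wells and then divided into sublibraries. The 2 samples are sublibraries 1 and 2 of 1 pool. They form 1 group, and the spread between them is technical, so the comparisons carry no test: they are given as values with their spread and counting error.

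Platelet-derived growth factors are secreted dimers that bind receptor tyrosine kinases on the cell surface, which then activate the Ras/MAP kinase, PI3 kinase and phospholipase C pathways. In the Xenopus gastrula the ligand is known from the ectoderm that roofs the blastocoel, and the receptor from the mesoderm that migrates along its inner face. There the ligand is bound by the fibronectin-rich matrix and guides the migrating cells. The ectoderm at this stage has an outer epithelial layer and an inner layer that faces the blastocoel. The question asked of the data was in which layers each gene was found, and whether single nuclei held both.

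The sublibraries held 44341256 and 44026454 UMIs (unique molecular identifiers, which count distinct transcripts). In them, 4245 and 4229 barcodes reached 1500 genes, and 3830 and 3860 nuclei were kept after removal of likely doublets, with medians of 4503.5 and 4517.5 UMIs. The nuclei formed 17 clusters, of which 13 were named from fixed marker lists that hold neither pdgfa nor pdgfra. They gave 2594 inner ectoderm-like, 1573 outer ectoderm-like, 1557 mesoderm-like and 679 endoderm-like nuclei, and 1287 nuclei in 4 clusters without a name. Levels are given as CPM, the UMIs of a gene summed over a class or cluster and scaled to a total of 1000000 UMIs. Summed over the outer-layer list, markers stood at 22923 CPM in outer and 1249 CPM in inner ectoderm-like nuclei. The mesoderm gene tbxt stood at 1320 CPM in mesoderm-like nuclei and 60.6 CPM in inner ectoderm-like nuclei, and gata6, of the endoderm lists, at 1071 CPM in endoderm-like and 19.7 CPM in inner ectoderm-like nuclei. Mesoderm and endoderm were set apart less well: tbxt stood at 556 CPM in endoderm-like nuclei, gata6 at 577 CPM in mesoderm-like nuclei, and the dorsal mesoderm list summed to 5470 CPM in endoderm-like against 3374 CPM in mesoderm-like nuclei. The inner-layer list did not set ectoderm apart from mesoderm: it summed to 8383 CPM in inner ectoderm-like and 6197 CPM in mesoderm-like nuclei.

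The ligand gene was highest in the inner layer of the ectoderm. The nuclei held 10777 UMIs of pdgfa, and 58.1% of them lay in inner ectoderm-like nuclei, which carried 29.5% of all UMIs. In these nuclei pdgfa stood at 511 CPM in sublibrary 1 and 492 CPM in sublibrary 2. Outer ectoderm-like nuclei had 152 and 144 CPM, mesoderm-like nuclei 135 and 165 CPM, and endoderm-like nuclei 48.3 and 38.0 CPM. Both values of the inner layer lay above all others, both values of the endoderm lay below all others, and the outer layer and the mesoderm overlapped.

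Over both sublibraries, inner ectoderm-like nuclei had 3.38-fold more pdgfa than outer ectoderm-like nuclei (95% counting interval 3.18 to 3.60). They had 3.34-fold more than mesoderm-like nuclei (3.14 to 3.55) and 11.6-fold more than endoderm-like nuclei (9.92 to 13.7). As log2 of CPM + 1, the ratios were 1.75 ± 0.02, 1.74 ± 0.24 and 3.52 ± 0.20 (mean ± SD, n = 2 sublibraries). All counting intervals here are exact, cover 95% and hold counting error only. The same order was seen in the 12 wells of the first barcoding round. In them the inner layer ranged from 424 to 597 CPM, the outer layer from 106 to 184 CPM, the mesoderm from 96.6 to 231 CPM and the endoderm from 7.55 to 82.1 CPM.

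A gene was called different between classes where it was at least 2-fold apart in the same direction in both sublibraries. By this rule pdgfa was higher in inner ectoderm-like nuclei against each of the other classes. Of all genes with at least 50 UMIs, 6.25% were higher in the inner than in the outer layer, 3.65% were higher in inner ectoderm-like than in mesoderm-like nuclei, and 8.88% were higher in inner ectoderm-like than in endoderm-like nuclei. Ordered by ratio, pdgfa was number 189 of 9231 genes in the first comparison, 93 of 9223 in the second and 15 of 8855 in the last. In the opposite direction 8.41%, 6.58% and 12.3% were called. The median log2 ratios over all these genes were 0.17, 0.11 and 0.19. In the main clustering, mesoderm-like nuclei also had more pdgfa than endoderm-like nuclei, with a log2 ratio of 1.78. This was number 67 of 8112 genes, of which 3.09% were called higher in mesoderm-like nuclei. The gap depends on how classes are set. With classes from marker UMIs of each nucleus and no clustering, pdgfa inner over mesoderm was 1.99 and inner over endoderm 2.01, nearly the same.

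The inner layer was not uniform. The cluster led by pax3, insm1 and prdm14 had 850 and 822 CPM of pdgfa in the 2 sublibraries. Pax3 is a transcription factor known from the neural plate border, and Insm1 is a zinc-finger factor of neurogenesis. By the marker lists, however, the pax3-led cluster was named non-neural ectoderm (score 0.80, and 0.62 for neural ectoderm). Inner clusters named non-neural had 647 CPM of pdgfa together, and those named neural 343 CPM. This contrast rests largely on the pax3-led cluster. The other one named non-neural, led by mettl24, had 384 CPM, between the neural clusters led by nedd9 (406 CPM) and pde7b (306 CPM). The pax3-led cluster, 822 nuclei in all, held 29.3% of the pdgfa UMIs in 8.93% of all UMIs. The clusters led by nedd9, mettl24 and pde7b had 378 and 430 CPM, 374 and 395 CPM, and 321 and 291 CPM. The pax3-led cluster was 2.18-fold above the mettl24-led cluster (2.03 to 2.34) and 2.74-fold above the pde7b-led cluster (2.56 to 2.93), in both sublibraries.

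**Figure D1:**
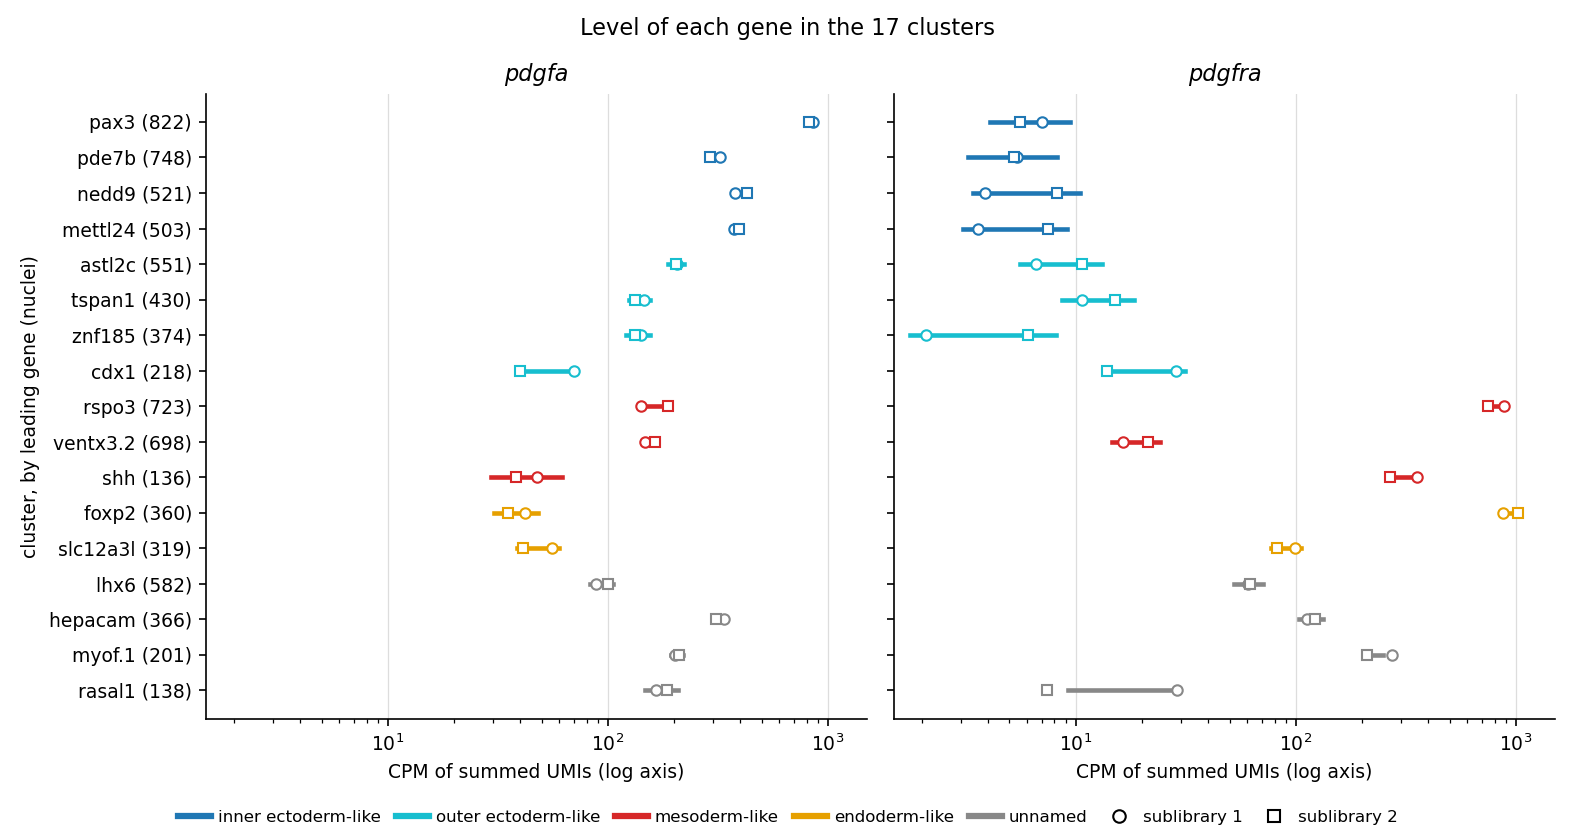
Level of pdgfa (left) and pdgfra (right) in the 17 clusters, as CPM of the UMIs summed over each cluster, on log axes; bars are exact 95% counting intervals over both sublibraries, circles and squares are sublibraries 1 and 2, and the number of nuclei stands beside each leading gene. The pdgfa level is highest in the pax3-led cluster (836 CPM), and the pdgfra level is highest in the foxp2-led (946 CPM) and rspo3-led (813 CPM) clusters and between 4.11 and 21.1 CPM in all 8 ectoderm-like clusters.

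In the outer layer, the 4 clusters ran from 205 CPM of pdgfa in the astl2c-led cluster to 54.6 CPM in the cdx1-led cluster. The sublibraries gave 205 and 204 CPM in the former and 69.8 and 39.9 CPM in the latter, a 3.75-fold difference (2.88 to 4.96). The tspan1-led and znf185-led clusters lay between them at 139 and 137 CPM. No outer cluster reached the lowest inner cluster, pde7b-led at 306 CPM.

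Among the mesoderm-like clusters, the rspo3-led cluster had 165 CPM of pdgfa and the ventx3.2-led cluster had 156 CPM. Rspo3 is a secreted enhancer of Wnt signalling, and ventx3.2 encodes a homeobox factor of the ventral gastrula. The sublibraries gave 142 and 187 CPM in the former and 148 and 163 CPM in the latter, which overlap. The shh-led cluster, with the notochord ligand gene shh, had 47.6 and 38.3 CPM, 3.80-fold below the rspo3-led cluster (2.65 to 5.63). Both endoderm-like clusters were as low, 38.6 CPM in the foxp2-led and 48.3 CPM in the slc12a3l-led cluster, with overlapping intervals.

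Ordered from high to low over all 17 clusters, the pdgfa level differed from its neighbour at few steps. Neighbours were taken to overlap where their counting intervals or their sublibrary values did. The pax3-led cluster stood alone, and the nedd9-led and mettl24-led clusters overlapped below it. The hepacam-led and pde7b-led clusters overlapped next. The myof.1-led cluster stood apart below them at 206 CPM, and the 6 clusters from there down to the znf185-led (137 CPM) each overlapped the one above. The lhx6-led cluster stood apart at 93.4 CPM, and the last 4, from 54.6 to 38.6 CPM, overlapped in turn.

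The receptor gene was found in mesoderm-like and endoderm-like nuclei and was low in ectoderm-like nuclei. Of the 7054 UMIs of pdgfra in the nuclei, 48.6% lay in mesoderm-like and 28.3% in endoderm-like nuclei, which carried 18.9% and 8.76% of all UMIs. Inner ectoderm-like nuclei had 1.03% of them and outer ectoderm-like nuclei 1.19%. The split between mesoderm and endoderm depends on the clustering. At a clustering resolution of 2, the endoderm-like ebf3-led and foxp2-led clusters held 1665 and 1555 pdgfra UMIs. The mesoderm-like clusters with the most, led by LOC105948415 and shh, held 1193 and 700. In the main clustering, pdgfra stood at 468 CPM in sublibrary 1 and 391 CPM in sublibrary 2 in mesoderm-like nuclei. Endoderm-like nuclei had 515 and 564 CPM. Inner ectoderm-like nuclei had 5.28 and 6.40 CPM, and outer ectoderm-like nuclei 9.87 and 11.2 CPM.

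Mesoderm-like nuclei thus had 73.3-fold more pdgfra than inner ectoderm-like nuclei (58.2 to 93.8), or 5.97 ± 0.35 on the log2 scale of CPM + 1 (n = 2 sublibraries). Of the 9223 genes measured in that comparison, pdgfra had the lowest ratio of inner ectoderm-like over mesoderm-like nuclei, and 6.58% were called higher in mesoderm-like nuclei. Against endoderm-like nuclei it was number 17 from the bottom of 8855 genes, of which 12.3% were called higher in endoderm-like nuclei and 21.2% in either direction. Between mesoderm-like and endoderm-like nuclei the log2 ratio was −0.33 ± 0.28. This is under the 2-fold rule, which called 11.2% of 8112 genes in either direction and 8.15% higher in endoderm-like nuclei. The wells overlapped too, from 302 to 526 CPM in the mesoderm and from 270 to 699 CPM in the endoderm. The ratio of inner over outer ectoderm was −0.76 ± 0.05, also under the 2-fold rule, which called 14.7% of 9231 genes in either direction, and the wells of the 2 layers overlapped.

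In the main clustering, most pdgfra UMIs of each of these germ layers lay in 1 cluster. They were 3140 of 3431 UMIs in the mesoderm and 1840 of 1999 in the endoderm. In the finer clusters given below, more than 1 cluster of each germ layer was high. The rspo3-led cluster had 886 and 743 CPM, and its 723 nuclei held 44.5% of all pdgfra UMIs. The ventx3.2-led cluster, also mesoderm-like by the lists, had 16.4 and 21.3 CPM, so the former was 42.9-fold higher (33.6 to 55.7). Both held tbxt, at 1479 and 1087 CPM. They differed in other markers: tp63, of the inner-layer list, stood at 374 CPM in the ventx3.2-led and 41.9 CPM in the rspo3-led cluster, and gata6, of the endoderm lists, at 25.6 and 1167 CPM. By mean standardised log2(CPM + 1), the rspo3-led cluster scored 1.71 for ventral mesoderm, 1.29 for ventral endoderm and 1.03 for dorsal endoderm. Its mesoderm name therefore rests on the scores over the lists, not on the absence of endoderm genes. The ventx3.2-led cluster, 698 nuclei, scored 1.07 for ventral mesoderm, 0.27 for non-neural ectoderm and 0.26 for neural ectoderm. It held tfap2a at 532 CPM and sox3 at 219 CPM, so its name does not rest on the absence of ectoderm genes. The shh-led cluster had 356 and 268 CPM of pdgfra, 2.56-fold below the rspo3-led cluster (2.24 to 2.95) and far above the ventx3.2-led cluster.

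Of the endoderm-like clusters, the one led by foxp2, frzb2 and cdh12 had 874 and 1023 CPM of pdgfra, and the one led by slc12a3l had 98.7 and 82.3 CPM. The former was 10.5-fold higher (8.90 to 12.4). It held hhex at 302 CPM, cer1 at 365 CPM and dkk1 at 95.1 CPM, genes of the anterior endoderm whose products repress or regulate Nodal, Bmp and Wnt signals. It also held chrd.1, the Bmp antagonist gene in the dorsal mesoderm list, at 4653 CPM, near the 5068 CPM of the shh-led cluster. The slc12a3l-led cluster, 319 of the 679 endoderm-like nuclei, held chrd.1 at 2578 CPM, tbxt at 818 CPM and the outer-layer keratin gene krt70 at 477 CPM, with hhex at 23.3 CPM. The endoderm name of both clusters therefore rests on the scores over the lists, not on the absence of mesoderm genes. At 946 and 813 CPM over both sublibraries, the foxp2-led and rspo3-led clusters led the order of pdgfra and overlapped between sublibraries.

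The next in that order were the shh-led and myof.1-led clusters at 317 and 235 CPM, which overlapped between sublibraries. The hepacam-led and slc12a3l-led clusters followed at 117 and 90.3 CPM, and their counting intervals touched (103 to 133 and 76.8 to 105). The lhx6-led cluster stood apart at 61.1 CPM. The cdx1-led cluster stood apart below it at 21.1 CPM (13.5 to 31.4), and the 9 clusters from there down to the znf185-led cluster at 4.11 CPM (1.77 to 8.10) each overlapped the one above. Neighbours among them could not be ordered, whereas the CPM of the first and the last lay apart in both intervals and sublibraries. These 2 levels rest on 24 UMIs in 13 nuclei, up to 7 in a nucleus, and on 8 UMIs in 6 nuclei. As shares of nuclei with a UMI, their intervals overlapped (3.21 to 9.98% and 0.59 to 3.46%).

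At the level of nuclei, pdgfra was often at high counts where it was present. In the foxp2-led cluster 96.1% of nuclei had at least 1 UMI of pdgfra (93.6 to 97.9%) and 50.6% had at least 5. In the rspo3-led cluster the shares were 86.4% (83.7 to 88.9%) and 43.0%. In inner ectoderm-like nuclei, the class with the least pdgfra, 2.51% had a UMI (1.94 to 3.18%), 60 of 65 of them a single UMI, and none had 5. Median depth was 4747, 4625 and 4296 UMIs in these groups. With each nucleus thinned to 2500 UMIs, which left out none of the nuclei, the shares were 86.3%, 75.6% and 1.42%. In the ventx3.2-led cluster, 7.16% of nuclei had a pdgfra UMI (5.36 to 9.34%), and 4.16% after thinning.

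The ligand gene was detected in nuclei of every class, most often in the inner layer. A UMI of pdgfa was found in 65.5% of inner ectoderm-like (63.7 to 67.4%), 37.2% of outer ectoderm-like (34.8 to 39.6%), 35.3% of mesoderm-like (33.0 to 37.8%) and 13.1% of endoderm-like nuclei (10.7 to 15.9%). After thinning, the shares were 52.3%, 24.3%, 23.2% and 7.06%. At least 5 UMIs were found in 17.7% of inner ectoderm-like nuclei and in 2.86%, 3.79% and 1.03% of the others. In the pax3-led cluster 82.7% of nuclei had a UMI and 32.2% had at least 5.

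**Figure D2:**
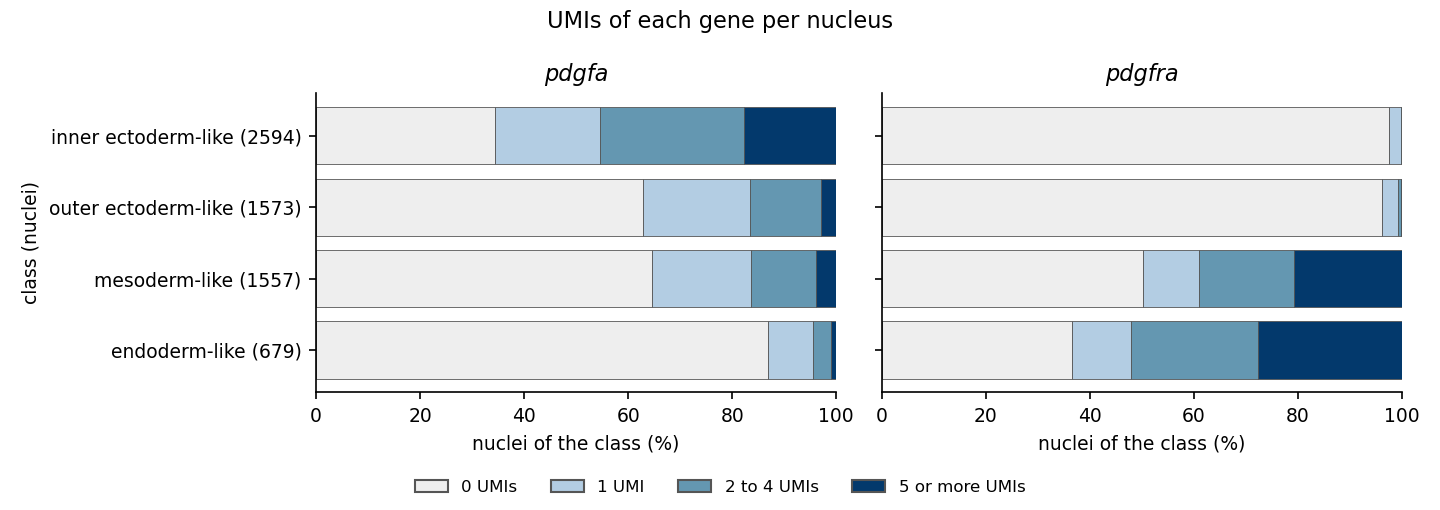
Share of nuclei (%) of each class with 0, 1, 2 to 4, or 5 or more UMIs of pdgfa (left) and pdgfra (right), both sublibraries together. Nuclei with 5 or more UMIs make up 17.7% of inner ectoderm-like nuclei for pdgfa and 27.7% of endoderm-like and 20.8% of mesoderm-like nuclei for pdgfra, and none of the inner ectoderm-like nuclei for pdgfra.

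RNA outside nuclei was read from the 163308 barcodes with under 100 genes, where pdgfa stood at 221 CPM and pdgfra at 185 CPM. The pdgfra level of inner ectoderm-like nuclei, 5.84 CPM, equals 3.16% of that level. Endoderm-like nuclei, the class with the least pdgfa, had 43.2 CPM (36.7 to 50.4), above the same percentage of the pdgfa level. That percentage is from pdgfra in inner ectoderm-like nuclei, and no share of outside RNA was estimated for endoderm-like nuclei. Whether their pdgfa UMIs came from RNA outside nuclei or from joined nuclei was not tested.

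At a clustering resolution of 2, which divided the nuclei further, the range of pdgfa within the inner layer widened. Of the 7 inner ectoderm-like clusters, those led by insm1 and by prdm14 and hmbs, both named non-neural, had 910 and 808 CPM of pdgfa. The 2 lowest, led by aifm3 and LOC101730712, had 126 and 171 CPM, within the range of the outer layer. Both of the lowest were named neural, as were the clusters at 473 CPM (led by prdm14 and bmpr1b) and 573 CPM (led by LOC108648189 and nedd9), which lay above the non-neural mettl24-led cluster at 380 CPM. The level of pdgfra stayed between 2.17 and 8.14 CPM in all 7.

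The mesoderm-like clusters at this resolution fell on either side of a gap in pdgfra. The cluster led by LOC105948415, ttn and wnt8a had 622 CPM and that led by shh, fgf16 and chrd.1 had 390 CPM, whereas those led by vps36, pnp and bmper had 34.1, 23.6 and 14.7 CPM. Endoderm-like clusters ran from 103 CPM (slc12a3l-led) through 487 CPM (astl2d.4-led) and 991 CPM (foxp2-led) to 1214 CPM. The highest, 273 nuclei led by ebf3, gata5 and arx, had 1265 and 1160 CPM in the sublibraries and 59.0 CPM of pdgfa. Gata5 is a transcription factor known from endoderm and heart mesoderm.

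**Figure D3:**
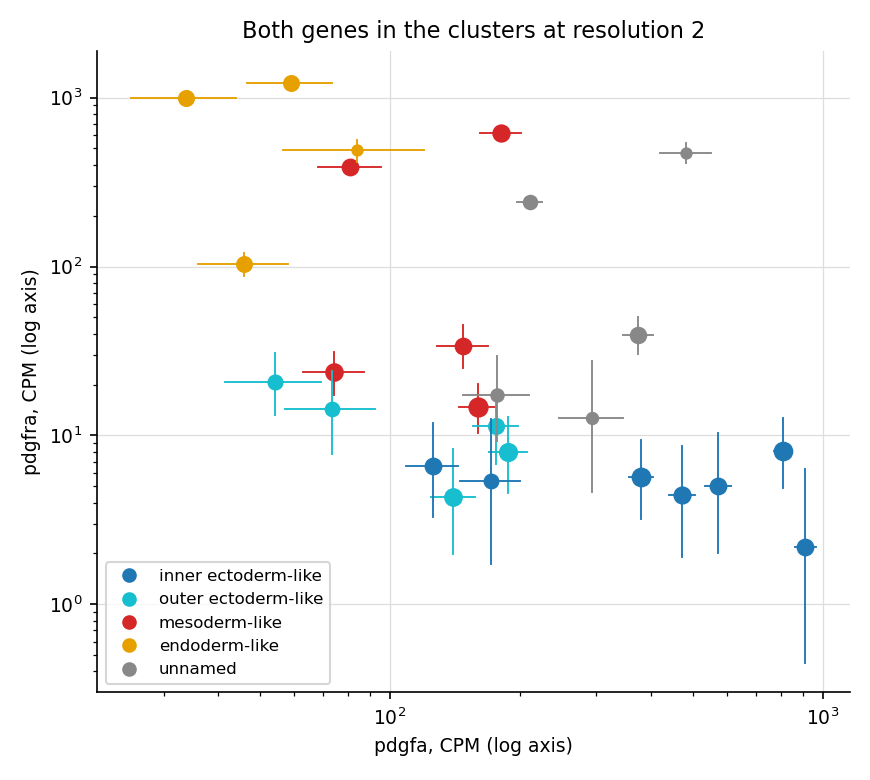
Level of pdgfa against pdgfra in the clusters of at least 20 nuclei at resolution 2, as CPM on log axes, with exact 95% counting intervals as lines and marker size growing with the number of nuclei. The inner ectoderm-like clusters reach from 126 to 910 CPM of pdgfa at 2.17 to 8.14 CPM of pdgfra, and the endoderm-like clusters lie at 33.8 to 83.9 CPM of pdgfa and 103 to 1214 CPM of pdgfra.

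Over the 17 main clusters, the levels of the 2 genes ran in opposite directions, with a Pearson r of −0.56 on log2(CPM + 1), and −0.58 and −0.50 in the sublibraries. The clusters share libraries and depth, and this is a description over clusters. The opposition was not a mirror image: the cdx1-led, ventx3.2-led and lhx6-led clusters were low or middling in both genes. The rspo3-led cluster was among the highest in pdgfra with pdgfa at the level of the outer ectoderm.

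Single nuclei could hold both transcripts. A UMI of each was found in 562 of 7690 nuclei, or 7.31% (6.74 to 7.91%). The product of the single shares, 45.2% and 21.9%, was 9.90%. Since deeper nuclei detect more of every gene, the shares were also computed with each nucleus thinned to 2500 UMIs. They were then 32.4% for pdgfa, 16.7% for pdgfra and 3.02% for both, against a product of 5.40%. The ratio of observed to product was 0.560, and 0.545 and 0.574 in the sublibraries.

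Pairs of markers from the lists of different germ layers gave ratios of 0.447 (tp63 with sox17a), 0.666 (tfap2a with gata6) and 0.908 (tp63 with tbxt). The last is a weak reference, since tp63 stood at 183 CPM in mesoderm-like and 184 CPM in inner ectoderm-like nuclei. The first rests on few nuclei: 26 had both genes before thinning, and the ratio was 0.390 and 0.503 in the sublibraries. Pairs from 1 germ layer gave 1.37 (tp63 with tfap2a), 2.15 (tbxt with wnt8a) and 3.29 (gata6 with sox17a). The ratio of pdgfa and pdgfra lay between the values of the tp63 with sox17a and tfap2a with gata6 pairs. Summed within clusters, the ratio of pdgfa and pdgfra was 0.917, so most of the gap to the product lay between clusters.

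**Figure D4:**
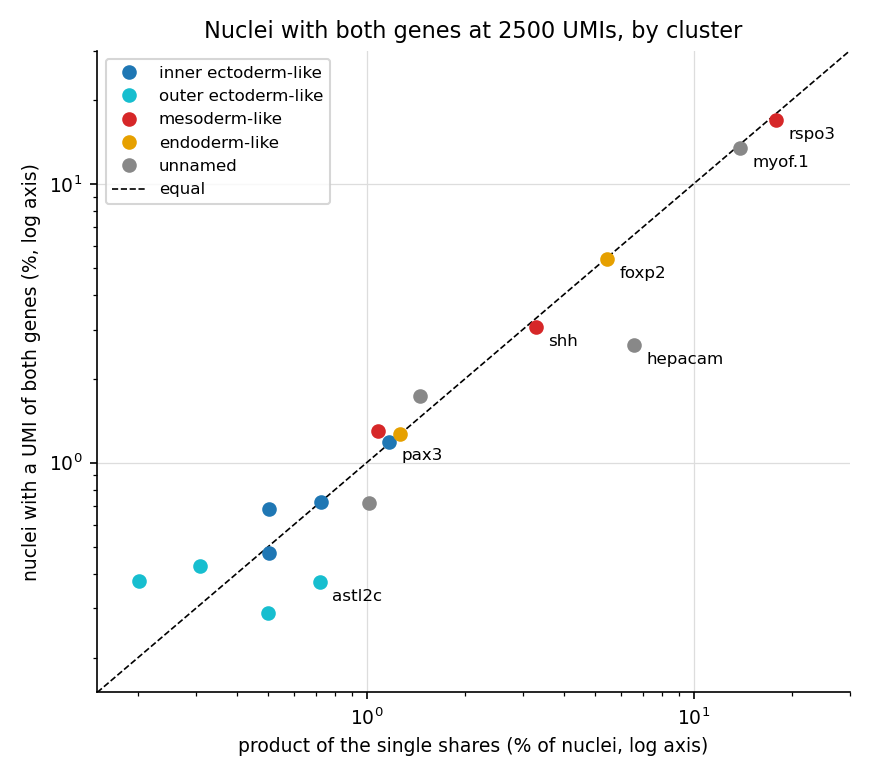
Share of nuclei with a UMI of both pdgfa and pdgfra (vertical axis) against the product of the single shares (horizontal axis) in each of the 17 clusters, in % of nuclei thinned to 2500 UMIs, on log axes; the dashed line marks equal values. The rspo3-led (16.9% against 17.8%) and foxp2-led (5.36% against 5.43%) clusters lie near the line, and the hepacam-led cluster lies below it (2.64% against 6.57%). Most nuclei of the rspo3-led and foxp2-led clusters had a pdgfra UMI, which leaves little room above the line.

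Of the 562 nuclei with both, 255 (45.4%) were mesoderm-like, the class with the most, and 187 (33.3%) had no class. The rspo3-led cluster held 220 of the mesoderm-like ones. There 30.4% of nuclei had both (27.1 to 33.9%), against a product of 30.7%, so the ligand was found in receptor-bearing nuclei about as often as the single shares gave. With pdgfra in 86.4% of these nuclei, the share with both could at most equal the 35.5% with pdgfa. It therefore had little room to exceed the product. Receptor-bearing mesoderm-like nuclei had 119 and 178 CPM of pdgfa in the 2 sublibraries and the others 153 and 151 CPM, which overlap. In endoderm-like nuclei 58 had both, and pdgfa stood at 43.6 CPM with and 42.5 CPM without a pdgfra UMI. Inner ectoderm-like nuclei with both numbered 40 (1.54%, 1.104 to 2.094%), of the 65 with any pdgfra UMI.

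A further 121 nuclei with both (21.5%) lay in the unnamed cluster led by myof.1. It has 201 nuclei, whose medians were 13571 UMIs and a doublet score of 0.12, against 4512 UMIs and 0.03 over all nuclei. Of the 131 nuclei with at least 3 UMIs of each gene, 68 lay in that cluster and 48 in the rspo3-led cluster. Over all nuclei, the medians of those with both genes were 6115 UMIs and, for the doublet score, 0.07. Among the 784 barcodes removed for their doublet score, 29.2% held both genes, without thinning and at a median of 8164 UMIs. The part of joined nuclei in the shared detection was not tested.

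In the main clustering, the hepacam-led cluster had the lowest ratio of observed to product for nuclei with both genes. It is 1 of the 2 clusters marked by dscaml1 and tp73, genes of nuclei that the study did not annotate. It had 336 and 309 CPM of pdgfa and 113 and 122 CPM of pdgfra, and the ratio of observed to product was 0.402 after thinning, 0.430 and 0.380 in the sublibraries. The astl2c-led cluster came next at 0.519, with 8 nuclei that had both before thinning. Its sublibraries gave 0.400 and 0.578, which overlap those of the hepacam-led cluster. In the hepacam-led cluster, the 85 nuclei with a pdgfra UMI had 118 and 108 CPM of pdgfa, and the other 281 nuclei had 413 and 381 CPM. Among the clusters with at least 50 nuclei on each side, no other had counting intervals of pdgfa with and without pdgfra that lay apart. Those of the astl2c-led, mettl24-led and myof.1-led clusters lay apart with 22, 11 and 36 nuclei on the smaller side. At resolution 2 the hepacam-led cluster held 308 nuclei, with 374 CPM of pdgfa and 39.4 CPM of pdgfra. It then had 66 UMIs of pdgfra, against 238 in the 366 nuclei of the main clustering. Whether the main cluster joins more than 1 kind of nuclei was not tested, and its sharing at resolution 2 is not given. The second such cluster, led by rasal1, had 165 and 186 CPM of pdgfa and 29.0 and 7.43 CPM of pdgfra from 13 UMIs.

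Most other genes of PDGF signalling were not called between the 2 classes, which was also true of all genes. A list of 94 ligands, receptors, signal transducers, proprotein convertases, matrix and migration genes was drawn up, of which 89 were in the matrix and 75 had at least 50 UMIs in the 2 classes. Between inner ectoderm-like and mesoderm-like nuclei, 4 of the 75 were called higher in the former and 12 in the latter, the members included, and 59 were called in neither direction. Without the members these were 3 and 11 of 73, or 19.2% called, and the rule called 10.2% of all genes in either direction. The median log2 ratio of the list was 0.09, beside 0.11 over all genes.

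Among the ligands, pdgfb was higher in inner ectoderm-like nuclei, at 18.2 against 4.50 CPM, a log2 ratio of 2.43 in sublibrary 1 and 1.32 in sublibrary 2. It was not particular to the inner layer or to ectoderm-like nuclei. Outer ectoderm-like nuclei had 25.0 CPM, and the counting interval of endoderm-like nuclei, 13.1 to 21.8 CPM, held the inner-layer level. The endoderm-like slc12a3l-led cluster had the highest pdgfb level of the 17 clusters, 34.6 CPM. It held 61 of the 63 pdgfb UMIs of endoderm-like nuclei. Only 36 UMIs of pdgfb were counted in mesoderm-like nuclei. The pdgfc gene had 148 UMIs in all nuclei and pdgfd 160. Of the receptors, pdgfrb had 24 UMIs in all nuclei and was too rare for the rule. Kit, the stem cell factor receptor of the same kinase family, had 104 CPM in inner ectoderm-like and 114 CPM in mesoderm-like nuclei, a log2 ratio of −0.13.

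Of the adaptors, kinases and feedback genes, 6 of 41 (14.6%) were called, all higher in mesoderm-like nuclei, beside 6.58% of all genes in that direction and 10.2% in either. They included fyn, a Src-family kinase (31.8 against 6.40 CPM), crkl, an adaptor (104 against 26.8 CPM), and spry1, a feedback inhibitor of receptor tyrosine kinases (66.6 against 16.8 CPM). Their log2 ratios of inner ectoderm-like over mesoderm-like nuclei were −2.15, −1.92 and −1.92. The other 3 were pik3r3, akt1 and spry2. In endoderm-like nuclei fyn, crkl and spry1 stood at 51.3, 71.8 and 69.9 CPM, so these genes were not particular to the mesoderm. The core transducers grb2, sos1, ptpn11 and plcg1 had ratios of 0.12, −0.02, −0.07 and 0.21 and were not called.

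Of the matrix and heparan sulfate genes, 4 of 14 (28.6%) were called, all higher in mesoderm-like nuclei, beside the same 6.58% and 10.2% of all genes. The fibronectin gene fn1 had 2148 against 51.4 CPM, a log2 ratio of −5.36. The gene of its receptor subunit, itga5, had 565 against 51.5 CPM (−3.43). Hs6st1, a sulfotransferase of heparan sulfate, had 47.7 against 7.28 CPM (−2.56), and the proteoglycan gene sdc4 was the other. Endoderm-like nuclei were high as well, with 1365 CPM of fn1, 612 CPM of itga5 and 58.6 CPM of hs6st1. In the convertase group furin, which cuts growth factor precursors, had 521 CPM in inner ectoderm-like and 247 CPM in mesoderm-like nuclei (1.07). Of the migration genes, the chemokine gene cxcl12 was higher in inner ectoderm-like nuclei (223 against 60.7 CPM, 1.86). Snai1, a repressor of cadherin genes, was higher in mesoderm-like nuclei (69.1 against 8.65 CPM, −2.86) and stood at 77.2 CPM in endoderm-like nuclei.

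**Figure D5:**
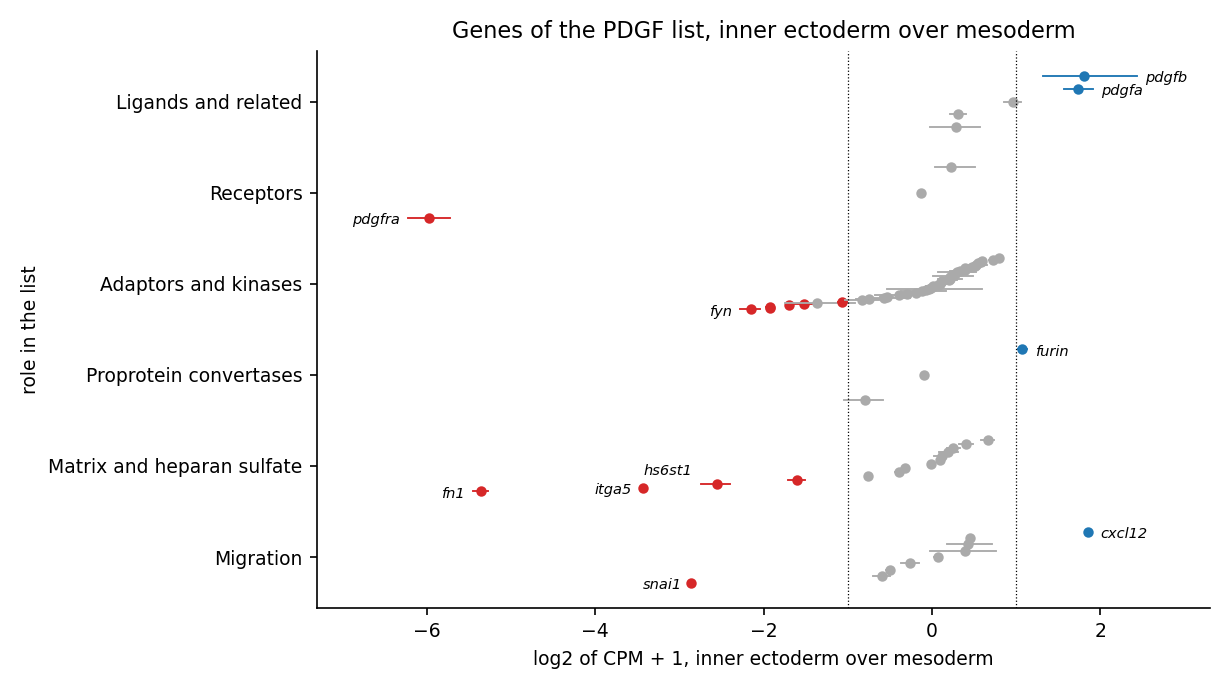
The log2 ratio of CPM + 1 in inner ectoderm-like over mesoderm-like nuclei for the 75 genes of the PDGF list with enough UMIs, by role; points are both sublibraries together, lines join the values of the 2 sublibraries, dotted lines mark 2-fold, and colour marks genes past 2-fold in both sublibraries. The pdgfra gene (−5.97) and fn1 (−5.36) lie farthest to the mesoderm side, and cxcl12 (1.86), pdgfb (1.80) and pdgfa (1.73) farthest to the ectoderm side.

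Over the 17 clusters, the patterns most like that of pdgfa, by Pearson r of log2(CPM + 1) among 8005 genes with at least 200 UMIs, were those of nampt (0.91), gpr161 and tom1l1 (both 0.89), sdf4 (0.89), fars2 and mapk12 (both 0.88), cxcl12 (0.88) and clic4 (0.87). The value for nampt was 0.86 and 0.90 in the sublibraries. For pdgfra they were foxc1 (0.98), lefty, spns2, gpd1l and LOC100145508 (each 0.97), fn1 (0.97), and iqch and LOC100485132 (both 0.96). Foxc1 is a forkhead factor and Lefty an inhibitor of Nodal. The foxc1 gene ran from 169 CPM in its highest cluster to 0.37 CPM in its lowest, and its r was 0.95 and 0.94 in the sublibraries. These values describe likeness over clusters of 1 pool, and genes other than the PDGF list could help define the clusters.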

How the data were processed

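Single-nucleus RNA-seq of 1 group, wild-type Xenopus tropicalis embryos at stage 10.5, was analysed from 2 sublibraries of 1 pool. The authors processed the reads by Parse Batch Analysis v1.1.4 (defaults) against UCB_Xtro_10.0, and the deposited counts are raw UMIs for each barcode and gene, with no filter, in 1 matrix of 215209 barcodes. A second deposited table lists the counts of genes and UMIs of each barcode, whose suffix gave the sublibrary. How reads shared between genes were assigned was not stated.

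Barcodes with at least 1500 genes were kept, the minimum of the study; 8474 reached it, fewer than the nuclei the study states. Scrublet (scanpy 1.11.5) called 0 doublets by its automatic thresholds, and these were not used. Why it called none was not tested. Barcodes with a score above 0.15, a threshold taken from earlier work on these data, were removed (9.25%). Among the kept nuclei 170 barcodes occurred in both sublibraries, and 134 would be shared by random use of 110592 combinations. For clustering, each nucleus was scaled to a total of 10000 and log-transformed. From 2000 variable genes, with pdgfa, pdgfra and the whole PDGF list left out, 30 principal components, 15 neighbours and Leiden clustering (leidenalg 0.10.2) at resolution 1 gave the clusters.

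Clusters were named from marker lists, some found by the study in these nuclei: the highest mean standardised log2(CPM + 1) set the layer and the region. A name needed at least 3 raised markers, and the 10 leading genes could not hold more markers from foreign germ layers than from that of the name. No name was given at a median doublet score above 0.1, under 20 nuclei or with 4-fold more dscaml1 and tp73. The lhx6-led cluster scored highest for dorsal mesoderm but failed the rule on leading genes. Names were rebuilt here and can differ from those of the study.

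Counts were summed per class and divided by the class total (CPM). Log2 ratios use CPM + 1, which understates changes of low genes. Nuclei are not replicates, so values are given per sublibrary or as mean ± SD over 2 sublibraries, with exact Poisson or Clopper-Pearson 95% intervals for counting error. The 2-fold call was also run on simulated data, which cannot stand for the spread between pools. The genes named are the 2 members, the 8 most like each, and genes of the PDGF list past 2-fold in both sublibraries, with values for at most 8 in each direction; kit, rarer ligands and receptors and 4 core transducers were named in addition, after their values were seen. The members, lists and settings were chosen with earlier results of these data known. Alternatives changed the gene minimum, doublet removal, clustering, naming, scaling, thinning and the sublibraries used. Levels of the 2 genes were not compared with each other, since transcripts differ in length.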

Additional observations from a re-analysis of the deposited data

Results flagged for a closer look

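Both genes were also found outside the nuclei that were compared. Barcodes under 1500 genes held 41.7% of all UMIs, and in them pdgfa stood at 231 CPM (39.3% of all its UMIs) and pdgfra at 224 CPM (48.9% of all its UMIs). In barcodes of 1000 to 1500 genes the levels were 247 and 245 CPM, and in nuclei kept 255 and 167 CPM.

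The clusters without a name held both genes too. The lhx6-led cluster of 582 nuclei had 93.4 CPM of pdgfa and 61.1 CPM of pdgfra, the hepacam-led cluster of 366 nuclei had 322 and 117 CPM, and the rasal1-led cluster of 138 nuclei had 176 and 17.4 CPM. In the lhx6-led cluster tbxt stood at 1271 CPM.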

How the results depend on the processing

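The direction of each of the 6 log2 ratios was the same under every alternative run. With at least 1000 genes, pdgfa inner over mesoderm was 2.08 and over endoderm 4.03. With at least 2000 genes (2885 nuclei), pdgfa was 1.095 inner over outer, 1.15 over mesoderm and 2.77 over endoderm, pdgfra was 5.52 mesoderm over inner and −1.34 mesoderm over endoderm, and 4.83% of nuclei had both genes. With doublets kept, pdgfa was 2.01 over mesoderm and 2.95 over endoderm, pdgfra 5.62, −0.63 and, inner over outer, −0.23, and 3.51% had both. At resolution 2, pdgfa inner over outer was 1.87 and pdgfra 4.98 and −1.82. With a larger set of variable genes pdgfra was 5.35 and −1.36, and with all genes allowed in clustering −0.63. With classes from marker UMIs of each nucleus, pdgfa was 1.51, 1.99 and 2.01 and pdgfra 4.70 and −1.74. The mean of single-nucleus CPM gave 3.81 for pdgfa over endoderm, and median-of-ratios scaling gave 1.57 inner over outer and 3.29 over endoderm. Counting the lhx6-led cluster as mesoderm, chosen after seeing the data, gave pdgfra 5.59 and −0.71. Thinned to 1500 UMIs, 1.56% had both. The causes of these moves were not tested. The ratio of mesoderm over endoderm for pdgfra passed 2-fold under 4 of these settings, so its size depends on these settings. The ratio of inner over outer ectoderm for pdgfra ranged from −1.22 to −0.23.

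With 1 sublibrary left out, pdgfa inner over outer ranged from 1.74 to 1.76, over mesoderm from 1.57 to 1.91 and over endoderm from 3.37 to 3.66. For pdgfra, mesoderm over inner ranged from 5.72 to 6.22, mesoderm over endoderm from −0.53 to −0.14, inner over outer from −0.79 to −0.72, and nuclei with both from 3.00 to 3.04%. The PDGF list had 12 to 18 genes past 2-fold over 16 alternatives, 16 as reported. The share of all genes called moved as well. With a pseudocount of 10 CPM, 12 of 75 listed genes were called, beside 5.87% of all genes. Without sublibrary 1 these were 18 of 70 and 12.9%, and without sublibrary 2 they were 18 of 71 and 13.8%. The observed share of nuclei with both over the product was 0.481 to 0.734, and 0.889 to 0.974 within clusters. No paired analysis was possible because the 2 samples form 1 group.

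With 1 pool, biological spread could not be measured. Levels of pdgfra in ectoderm-like nuclei rest on 73 (inner) and 84 (outer) UMIs, so most neighbouring clusters among them could not be ordered at this depth.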
